A study of Mus musculus with 44 samples.

Results

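The Elavl, Rbfox and Nova families and Ptbp2 encode RNA-binding proteins of neurons, and their mRNAs were followed here through RNA-seq, ribosome profiling and poly(A)-tail sequencing of mouse brain and cultured cortical neurons. The members were chosen by gene name and not by a cutoff on their values, though with earlier results of these data known. They were Elavl1, Elavl2, Elavl3, Elavl4, Rbfox1, Rbfox2, Rbfox3, Nova1, Nova2 and Ptbp2, which makes 10 of the 17126 genes listed in the data. Each was found under a single RefSeq accession. ELAV proteins (also called Hu proteins) bind AU-rich elements, mostly in introns and 3′ UTRs, and stabilise mRNAs or direct their splicing and polyadenylation. Elavl1 (HuR) is made in nearly all cell types, whereas Elavl2 (HuB), Elavl3 (HuC) and Elavl4 (HuD) are neuronal and appear as progenitors leave the cell cycle. Rbfox proteins bind GCATG motifs and direct alternative splicing, and Rbfox3 is NeuN, the antigen used to stain nuclei of mature neurons. Nova1 and Nova2 bind clusters of YCAY motifs (Y for C or U) and direct splicing at synaptic genes. Ptbp2 (nPTB) replaces its paralog Ptbp1 in newly formed neurons, represses exons of mature neurons and is itself lowered as neurons mature.

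All animals were C57BL6J mice, for which no engineered allele is named. Cortical cultures were made from newborn pups and treated with ara-C, which kills dividing cells. They were kept for 14 days in vitro (DIV14), or for 10 days (DIV10) where KCl was used. DIV14 cultures were left unstimulated, were given BDNF or glutamate with glycine (glu/gly) for 30 min, or received on day 5 a lentivirus in which the neuronal synapsin promoter drove EGFP, alone (GFP) or with miR-1 or miR-155. DIV10 cultures received KCl for 0, 10 or 30 min. By the paper, 6 culture samples came in 2 batches of 3, each from 2 litters, and the cultures of each batch are not named. Tissues were hippocampi of E16 embryos, the hippocampus of an adult male mouse and the cortex of an adult male mouse. Visual cortex came from mice aged 6 to 7 weeks after 1 week of darkness, 4 of which stayed in the dark while 4 were given 1 h of light. Every culture and tissue had 1 library per assay, so these comparisons have no replicate check and no test, and their intervals cover counting error only. The 4 dark and 4 light mice were the only replicates.

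Depth set the precision. Reads on genes ran from 448022 to 7689624 in RNA-seq and from 2812215 to 23212489 in the 10 grouped libraries of ribosome-protected fragments (RPF), and tail tags ran from 86841 to 4812273. In all 9 cultures, RNA-seq gave most members fewer than 200 reads, and the lowest values were 2 reads of Nova1 (BDNF) and 5 reads of Nova2. Poly(A) selection was used for hippocampal RNA, and rRNA depletion for adult cortex and 6 cultures, while for 3 cultures the step is not stated. Mature neuron markers (8 of 8 detected) summed to 5564 TPM in embryonic and 11730 TPM in adult hippocampus, and to between 5095 and 6739 TPM in the cultures. Oligodendrocyte markers summed to 63.65 TPM in embryonic hippocampus, with Mog at 0, and to 3523 TPM in adult hippocampus and 4037 TPM in adult cortex. In the cultures they summed to between 54.65 and 114.3 TPM. In bulk tissue, fewer cells of a type and less RNA per cell cannot be told apart.

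On GRCm38.p6, RefSeq places Elavl1 at chr8:4284782-4325100 (- strand, 6 exons), Elavl2 at chr4:91250686-91376496 (- strand, 7 exons), Elavl3 at chr9:22015005-22052023 (- strand, 7 exons) and Elavl4 at chr4:110203737-110286834 (- strand, 7 exons). It places Rbfox1 at chr16:5884793-7412480 (+ strand, 17 exons), Rbfox2 at chr15:77078990-77307053 (- strand, 14 exons) and Rbfox3 at chr11:118489760-118909572 (- strand, 15 exons). The Nova genes differ in extent, with Nova1 at chr12:46697898-46818767 (- strand, 5 exons) and Nova2 at chr7:18925888-18965319 (+ strand, 4 exons). Ptbp2 lies at chr3:119718742-119783388 (- strand, 14 exons). RNA-seq and RPF values come from the coding exons of these genes.

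Long 3′ UTRs were common to the members. All 10 had a 3′ UTR longer than that of the median gene (925 nt), from 1586 nt in Ptbp2 to 5172 nt in Rbfox2 and 6701 nt in Nova2. Copies of ATTTA, the core of AU-rich elements, numbered 18 in Elavl1, 15 in Elavl2, 11 in Nova1 and 0 in Rbfox3, and 9 of 10 members held at least 1. Among all 3′ UTRs 64.3% held ATTTA, and among the 5193 of the members' length range 94.3% did. TGCATG, which contains the Rbfox motif, was present in 8 of 10, with 4 copies in Nova1 and 3 in Nova2, compared with 31.4% of all 3′ UTRs and 60.3% of those of like length. Both motifs were searched on the transcript strand only. GC content of the CDS set Nova2 (68.8%, above 99.0% of genes) and Ptbp2 (43.7%, above 7.9%) at opposite ends of the set. Members shared at most 2 stretches of 28 nt of CDS with any other member, Elavl3 with Elavl4 and Rbfox1 with Rbfox2.

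Because miR-155 was expressed in a culture, its seed match was searched in the 3′ UTRs. Sites for miR-1 were not searched. Elavl1, Elavl2 and Nova1 each carried a 7-nt site, compared with 11.9% of all 3′ UTRs with an 8mer or 7mer site and 24.6% of those of like length, and Rbfox2, Nova2 and Ptbp2 carried only the 6-nt match. The mature miRNA (chr16:84714143-84714165, + strand) is shown with its seed, bases 2 to 8, in capitals, and the sites with their 7 nt in capitals (opposite bases 2 to 8, or in Elavl2 opposite bases 2 to 7 and followed by A), all from RefSeq on GRCm38.p6 and written 5′ to 3′. The stretch shown of Elavl1 lies at chr8:4287951-4287978, that of Elavl2 at chr4:91251830-91251857 and that of Nova1 at chr12:46699680-46699707, each on the - strand.
miR-155-5p: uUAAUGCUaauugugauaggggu
Elavl1 3′ UTR: catggtatgatAGCATTAtttacacata
Elavl2 3′ UTR: ctttgtaaatgGCATTAAcattgttact
Nova1 3′ UTR: gccattttaccAGCATTAttgtagttta

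Levels were compared between genes per length, as reads per kb of counted CDS over the sum of that quantity for all genes (TPM). Fold differences between libraries were taken from reads per 1000000 reads on genes (CPM) and are not ratios of TPM. In embryonic hippocampus the neuronal Elavl genes led, with Elavl3 at 507.8 TPM (2802 reads) and Elavl2 at 326.6 TPM (1761 reads), and Rbfox1 (41.85 TPM, 250 reads) and Nova1 (45.87 TPM, 354 reads) were lowest. In both adult tissues Rbfox1 was highest, at 344.1 TPM in hippocampus and 251.5 TPM in cortex. Every culture had Ptbp2 or Rbfox2 at the top of its RNA-seq order, with Ptbp2 between 146.0 and 220.2 TPM and Rbfox2 between 142.0 and 261.4 TPM over the 9 cultures. In RNA-seq, the leading gene thus differed between embryonic tissue, adult tissue and culture. In RPFs, Elavl3 was the highest member in embryonic hippocampus (619.4 TPM) and in 6 of 7 cultures, and Rbfox1 was the highest in both adult tissues (547.3 and 544.6 TPM).

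**Figure D1:**
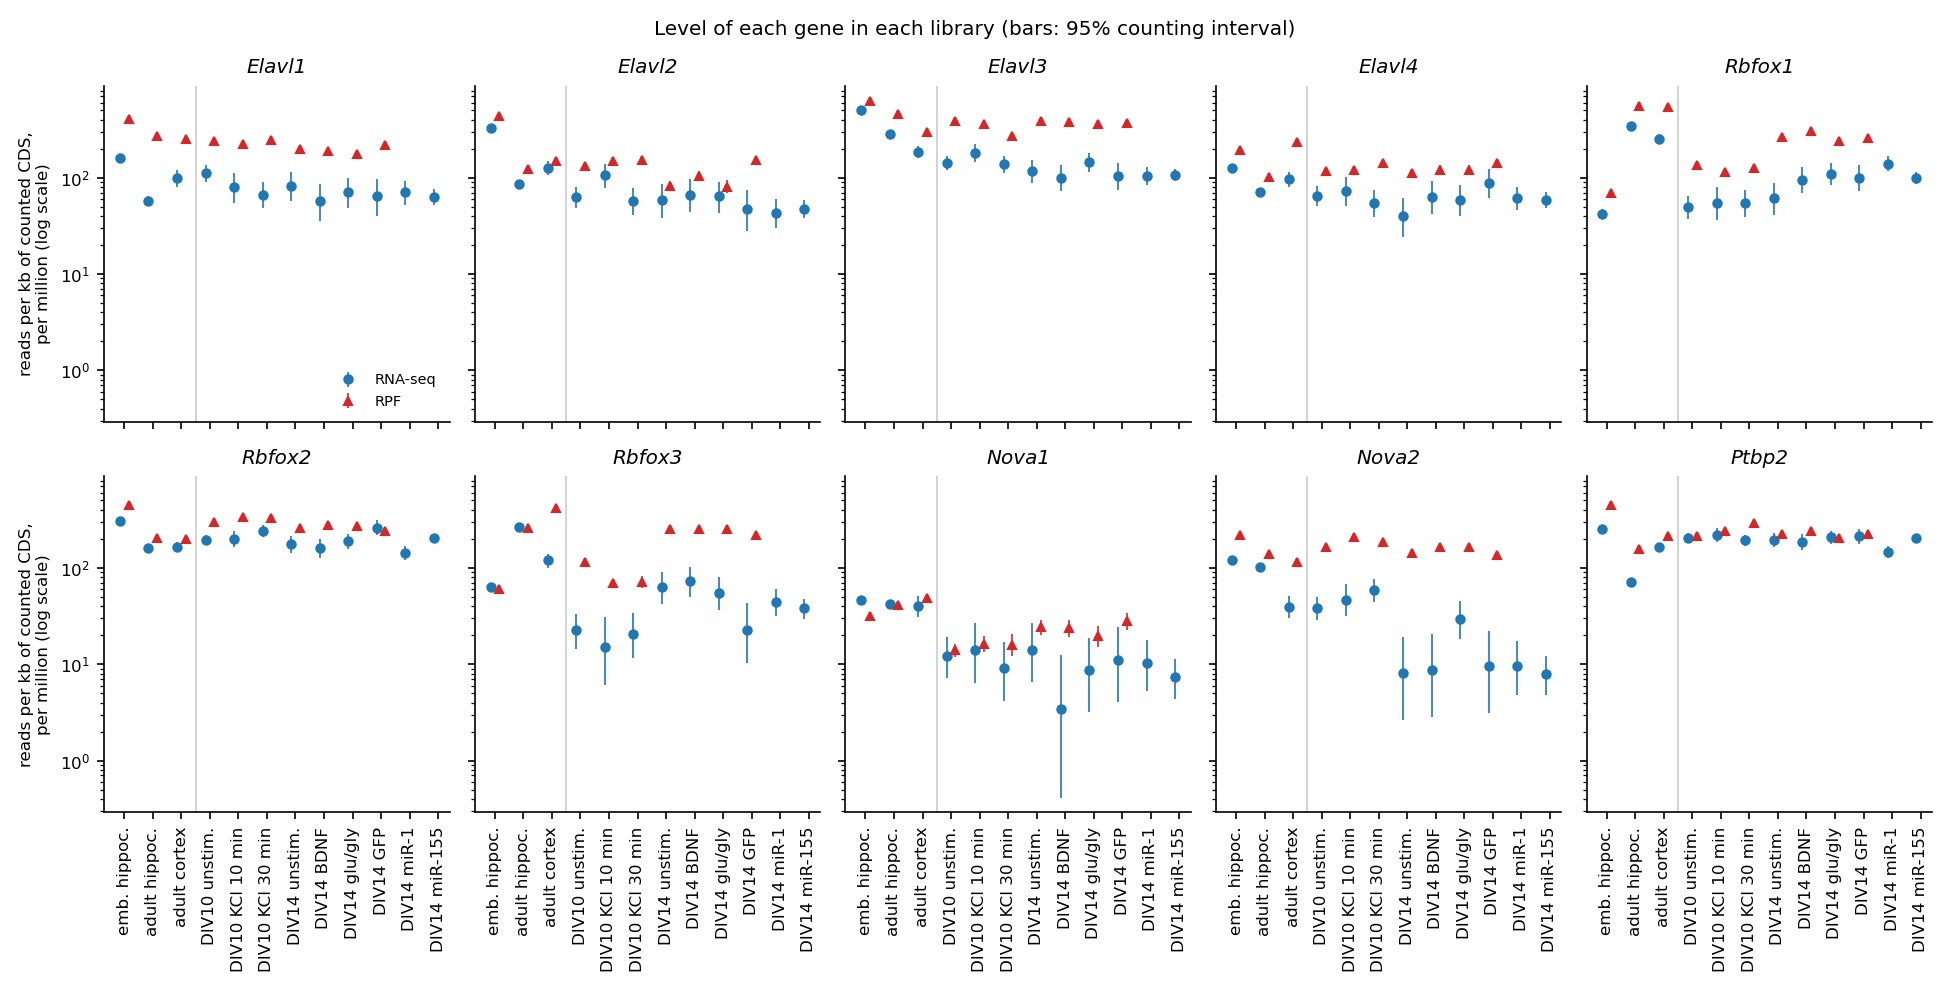
Level of each of the 10 genes in each library, in TPM on a log axis, for RNA-seq (circles, 12 samples) and RPFs (triangles, 10 samples); bars are 95% counting intervals and the vertical line separates tissues from cultures. Rbfox1 and Rbfox3 sit highest in adult tissue, the Elavl genes, Rbfox2 and Ptbp2 in embryonic hippocampus with the exception of Elavl4 RPFs (adult cortex), and Nova1 is lowest in every culture except where Nova2 RNA-seq falls under it.

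The range of TPM over the 12 RNA-seq samples was 17.8-fold for Rbfox3, 15.4-fold for Nova2 and 13.4-fold for Nova1, whose lowest values rest on 7, 20 and 2 reads. It was 8.22-fold for Rbfox1 and 7.65-fold for Elavl2, and smallest for Rbfox2 (2.15-fold) and Elavl1 (2.84-fold). When samples were ordered by CPM, few neighbours in the order were apart by counting. Of the 11 neighbouring pairs of RNA-seq samples, 0 to 3 were apart for any member, and of the 9 pairs of RPF samples, 2 to 6. Rbfox3 RPFs had the most steps, falling from adult cortex (412.4 TPM) through adult hippocampus (261.6 TPM) and the DIV14 cultures (217.2 to 251.5 TPM) to the DIV10 cultures (68.84 to 114.4 TPM) and embryonic hippocampus (60.37 TPM).

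The comparison of adult with embryonic hippocampus asked how the set differed between forming and mature tissue. Rbfox1 and Rbfox3 were higher in the adult and Elavl1, Elavl2 and Ptbp2 were lower, each by more than 2-fold in RNA. Higher by 2-fold or more were 2 of 10 members, against 22.3% of 12884 genes, and lower were 3 of 10, against 26.6%. The median member was at -0.78 on the log2 scale and the median gene at -0.23. Neither count stood far from its background.

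Within the Rbfox family, the genes went opposite ways. Rbfox1 had 250 RNA reads in embryonic and 2036 in adult hippocampus, or 41.85 and 344.1 TPM, a level 8.6-fold higher (95% counting interval 7.54 to 9.85). Rbfox3 went from 62.72 to 267.8 TPM, 4.47-fold higher (3.98 to 5.03). Rbfox2, which is also made outside neurons, went from 305.8 to 159.3 TPM, 1.83-fold lower (1.7 to 1.98). As a result, Rbfox2 made up 74.5% of the Rbfox RNA per length in the embryo and 20.7% in the adult, whereas Rbfox1 went from 10.2% to 44.6% and Rbfox3 from 15.3% to 34.7%. RPFs gave nearly the same sizes, with Rbfox1 8.55-fold higher (8.11 to 9.03), Rbfox3 4.72-fold higher (4.44 to 5.03) and Rbfox2 1.99-fold lower (1.93 to 2.06).

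By CPM, all 4 Elavl genes were lower in the adult in both RNA and RPFs. Elavl2 RNA went from 326.6 to 86.31 TPM, 3.62-fold lower (3.26 to 4.02), and its RPFs were 3.26-fold lower (3.11 to 3.41). Elavl1 RNA was 2.7-fold lower (2.35 to 3.11), with 785 reads in the embryo and 275 in the adult, but its RPFs only 1.39-fold lower (1.34 to 1.44). RNA of Elavl3 was 1.73-fold lower (1.62 to 1.84) and that of Elavl4 1.7-fold lower (1.5 to 1.92). Their RPFs were 1.24-fold lower (1.2 to 1.27) for Elavl3 and 1.73-fold lower (1.64 to 1.82) for Elavl4. The Elavl3 RPF difference moved with scaling, from log2 -0.31 by CPM to -0.04 with TMM. Summed over the 4 genes, Elavl RNA was 1122 TPM in embryonic and 495.3 TPM in adult hippocampus.

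Ptbp2 RNA went from 254.3 to 71.71 TPM, 3.39-fold lower in the adult (3.09 to 3.72), and its RPFs were 2.59-fold lower (2.51 to 2.68). In RNA, the Nova genes differed least of the members. Nova1 RNA was at 45.87 and 41.73 TPM, with an interval that spanned equality (log2 -0.07, from -0.29 to 0.15), and its RPFs were 1.41-fold higher in the adult (1.29 to 1.54). Nova2 RNA was 1.13-fold lower (1.03 to 1.25) and its RPFs 1.44-fold lower (1.39 to 1.5). In RPFs as a whole, 2 of 10 members were higher by 2-fold or more (30.3% of all genes) and 2 were lower (33.5%).

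These counts moved with the scaling. With the authors' RPM, whose total includes reads off the listed genes, Elavl3, Elavl4 and Rbfox2 also passed 2-fold in RNA, which made 6 members lower (35.3% of all genes) and left 2 higher (18.2%), while the median gene moved to -0.55. With TMM scaling the counts were again 2 and 3 (24.3% and 23.3% of all genes). Tags of PAL-seq, which came from other libraries, placed Rbfox1 at log2 3.02 (2.19 to 3.99), Rbfox3, on 2 and 25 tags, at 2.29 (0.29 to 5.41) and Elavl2 at -1.35 (-2.01 to -0.70). By tags, 2 of 8 members with enough counts were higher (28.5% of genes) and 3 were lower (17.2%), here Elavl2, Elavl3 (-1.22) and Rbfox2 (-1.03). By tags Elavl1 was at -0.16 (-0.93 to 0.65) and Elavl4 at -0.38 (-1.09 to 0.36), so neither was lower there beyond counting error. The sums of neuronal and glial markers moved between the same libraries, immature neuron markers from 4486 to 179.1 TPM and progenitor markers from 915.9 to 60.3 TPM, and their part in these differences was not tested.

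**Figure D2:**
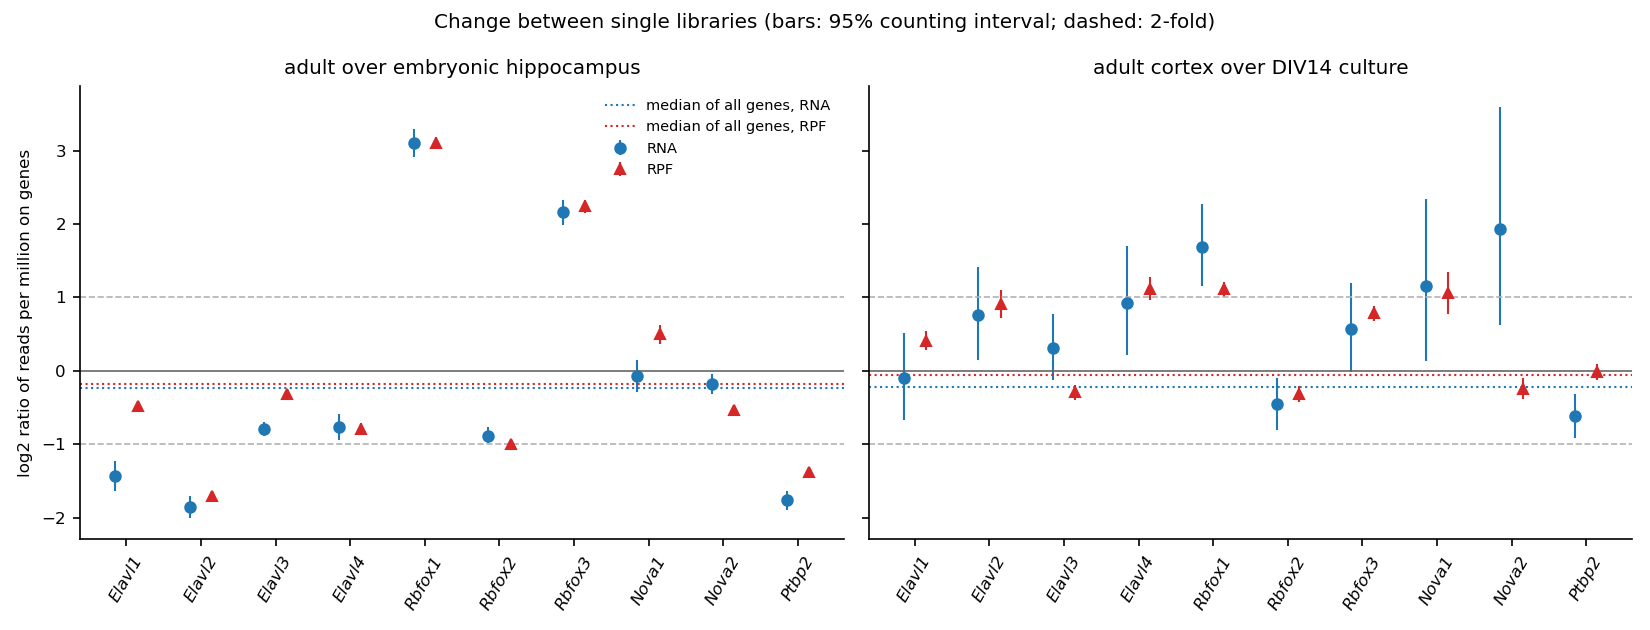
Log2 ratios of CPM for the 10 genes, adult over embryonic hippocampus (left) and adult cortex over the unstimulated DIV14 culture (right), for RNA (circles) and RPFs (triangles); bars are 95% counting intervals, dotted lines the medians of all genes and dashed lines 2-fold. Rbfox1 and Rbfox3 stand at about 3.10 and 2.16 on the left, and on the right Rbfox1 and Nova1 pass 2-fold in both assays while Nova2 RNA and RPFs part.

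For a wider view of neural RNA-binding and splicing genes, a list of 24 others was examined, of which 23 had enough reads. In RNA 4 were higher by 2-fold or more in the adult (Celf4, Mbnl1, Mbnl2 and Srrm3) and 6 were lower (Ptbp1, Khdrbs1, Msi1, Srrm4, Stau1 and Raver1). The largest differences were those of Mbnl2, a splicing regulator of mature tissue, at 11.7-fold higher, and of Msi1, a regulator of neural progenitors, at 9.36-fold lower. In RPFs 4 were higher and 9 lower, and Ptbp1, the paralog that Ptbp2 replaces, was 15.3-fold lower. Over the 23 genes the median was -0.73 in RNA, close to the -0.78 of the 10 members.

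Comparing adult cortex with the unstimulated DIV14 culture set tissue against cultured cortical neurons. Rbfox1 and Nova1 were higher in cortex in both RNA and RPFs, and no member was lower by 2-fold. In RNA 3 of 10 members were higher by 2-fold or more, compared with 17.4% of genes, and 0 were lower, compared with 19.5%. Rbfox1 RNA was 3.22-fold higher (2.22 to 4.86), at 251.5 TPM in cortex and 60.91 TPM in culture. Nova1 was 2.22-fold higher (1.1 to 5.06), on 67 and 9 reads. Nova2 was 3.81-fold higher (1.55 to 12.1), on 64 and 5 reads. Those low counts in culture left wide intervals. With ratios of TPM in place of CPM, a scaling chosen after seeing the data, Elavl2 (126.9 against 58.48 TPM) and Elavl4 (96.43 against 39.73 TPM) also passed 2-fold, which made 5 members higher (24.1% of genes) and 0 lower (10.0%).

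In RPFs 3 of 10 were higher (12.3% of genes) and 0 lower (11.9%). Elavl4 was 2.18-fold higher (1.96 to 2.42), Rbfox1 2.15-fold higher (2.01 to 2.31) and Nova1 2.08-fold higher (1.71 to 2.55). Elavl2 (1.88-fold, 1.65 to 2.14) and Rbfox3 (1.72-fold, 1.6 to 1.86) were also higher with intervals above 1, and Ptbp2 was level (log2 -0.02, -0.12 to 0.09). Nova2 did not follow its RNA, since its RPFs were 1.18-fold lower in cortex (1.07 to 1.3) and its tags were level (log2 0.02, -0.59 to 0.62). By tags 1 member, Nova1 (log2 1.44, 0.86 to 2.02), passed 2-fold, compared with 11.3% of genes, and 0 were lower (10.5%). Nova2 had the highest GC content of CDS in the set, and its part in the gap between assays was not tested. The GFP culture in place of the unstimulated one was a comparison chosen after seeing the data. Against it, 5 members were higher in RNA (Elavl2, Rbfox1, Rbfox3, Nova1 and Nova2) and 2 in RPFs (Rbfox1 and Rbfox3). The share of all genes was not counted for that comparison. RNA of Rbfox3, Nova1 and Nova2 in the GFP culture rested on 9, 6 and 5 reads. Rbfox1 alone passed in both assays with either culture. With TMM scaling, 5 members were higher in RNA (adding Elavl2 and Elavl4), of 22.4% of genes, and 0 lower, of 11.8%. Ratios of TPM left 2 members higher in RPFs, Elavl4 and Rbfox1 (11.5% of genes), without Nova1. Mature neuron markers summed to 10630 TPM of RNA in cortex and 5212 TPM in culture, and to 16690 and 10200 TPM of RPFs. Oligodendrocyte and microglial markers also differed, at 4037 against 69.14 TPM and 470.6 against 52.17 TPM of RNA, and the part of these markers was not tested.

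Adult cortex and adult hippocampus differed in region and in RNA selection, which cannot be told apart. Ptbp2 RNA was 2.11-fold higher in cortex (1.82 to 2.43; 10.2% of genes higher), and Rbfox3 2.42-fold lower (2.04 to 2.89) and Nova2 2.8-fold lower (2.17 to 3.67; 11.4% of genes lower). RPFs gave another picture. Elavl4 alone passed 2-fold, at 2.24-fold higher in cortex (2.1 to 2.39; 19.9% of genes higher), and 0 members were lower (12.3%). Rbfox3 RPFs were 1.54-fold higher in cortex (1.47 to 1.62), against the direction of its RNA.

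Time in culture was followed from DIV10 to DIV14, in cultures that also belonged to different experiments. The paper states rRNA depletion for 6 cultures without naming them, and it has 6 cultures at DIV14. If these are the same, the 3 cultures without a stated step are those of DIV10. RNA selection may therefore differ as well, and in RNA-seq it cannot be told apart from time in culture. Rbfox3 was at 22.37 TPM of RNA at DIV10 (24 reads) and 62.5 TPM at DIV14 (29 reads), 2.83-fold higher (1.59 to 5.08). It was the only member higher by 2-fold in RNA (3.02% of genes) and in RPFs (4.42% of genes), where it was 2.23-fold higher (2.04 to 2.45) and 0 members were lower (9.8% of genes). Rbfox1 RPFs were 1.99-fold higher (1.83 to 2.16), just inside that limit, and its RNA 1.25-fold higher with an interval that spanned equality (0.777 to 1.99). By tail tags both genes passed, Rbfox3 at log2 1.52 (0.91 to 2.19) and Rbfox1 at 1.11 (0.80 to 1.43), compared with 5.2% of genes, and 0 members were lower (6.82%). The share of Rbfox2 among Rbfox RPFs was 54.6% at DIV10 and 33.5% at DIV14.

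Nova2 RNA was 4.61-fold lower at DIV14 (1.86 to 14.8), on 54 and 5 reads (8.47% of genes lower), whereas its RPFs were 1.12-fold lower (1.03 to 1.22) and its tags were at log2 -0.46 (-1.01 to 0.09). RPFs of Nova1 were 1.77-fold higher (1.39 to 2.25) and those of Elavl2 1.56-fold lower (1.37 to 1.78). Elavl3, Elavl4 and Ptbp2 RPFs lay within 1.09-fold of their DIV10 level. Among the 24 other genes, 0 were higher by 2-fold in RPFs and 1 lower, Ptbp1 at 2.12-fold. Immature neuron markers went from 1052 TPM at DIV10 to 559.5 TPM at DIV14, and their part in these differences was not tested.

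Translational efficiency (TE), the log2 ratio of RPFs to RNA-seq in RPM, was ranked among genes with at least 10 RPM of RNA in the same sample. The median member ranked above between 82.8% (DIV10 with 30 min of KCl, 3 members with a value) and 96.1% (adult cortex, 8 members) of genes. Only Nova1 in embryonic hippocampus (43.5%) lay under the median gene. In the DIV14 unstimulated culture, 7 of 7 members with a value were in the top 25%, in adult cortex 8 of 8, and in each hippocampus 8 of 10. Ranks in that culture rest on few RNA reads, with 33 for Elavl1, 26 for Elavl2, 30 for Rbfox1 and 29 for Rbfox3. The log2 TE of Elavl2 there was 2.11 (1.53 to 2.74). The lowest share was in the GFP culture, with 3 of 5, where Rbfox2 ranked above 64.9% of genes. The rank is a description with no test.

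Elavl1 ranked highest in both hippocampi and never under 94.3% in 7 samples. Its log2 TE was 2.37 (2.27 to 2.48) in embryonic and 3.61 (3.43 to 3.79) in adult hippocampus. After the shift of the median gene was taken off, this was a difference of 1.02, the only TE difference of a member past 2-fold between the ages (1 of 10 higher, 10.8% of genes; 0 lower, 11.3%). Its RNA-seq level was the lower in the adult, while its tags did not differ beyond counting error. Its adult RNA level was 13.96 RPM, so that a cutoff of 30 RPM removed the value.

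Ptbp2 ran from 66.2% (glu/gly) to 98.4% (adult hippocampus) and ranked lowest of the members in 5 of the 7 cultures. Rbfox3 showed the widest contrast, at 64.4% and 68.8% in embryonic and adult hippocampus but between 97.5% and 99.6% in adult cortex and the 3 DIV14 cultures with a value. In those cultures its RNA rested on 28 to 31 reads. Between adult tissues its TE was higher in cortex by 1.92 beyond the median gene (1 of 8 members; 7.36% of genes higher by 2-fold), and 0 members were lower (5.63%), in libraries whose RNA selection differed. Adult cortex over culture had 0 of 7 members past 2-fold in either direction (3.52% of genes higher, 14.7% lower). DIV14 over DIV10 had 0 of 5 (1.02% and 0.289%), in cultures whose RNA selection may differ. Nova2 at DIV14 had 5 RNA reads, under the cutoff, and its log2 TE of 5.74 (4.51 to 7.37) was not ranked.

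**Figure D3:**
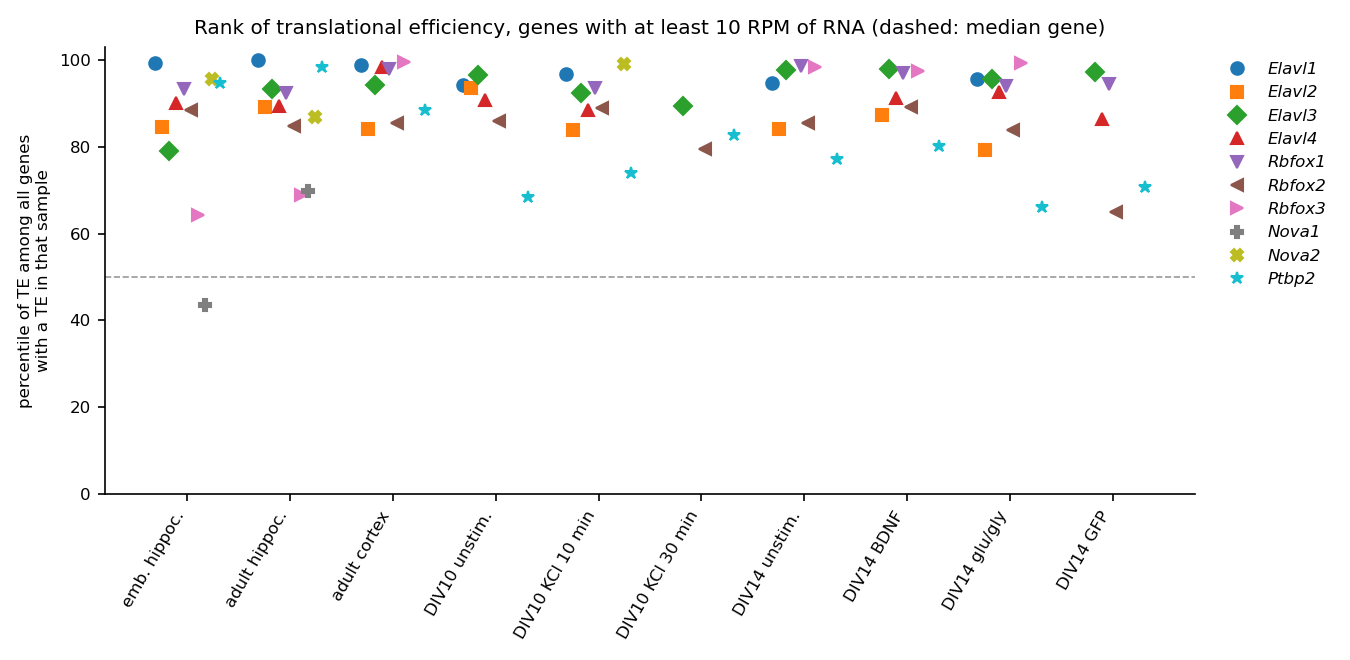
Percentile of TE of each gene among all genes with at least 10 RPM of RNA in that sample, for 10 samples; the dashed line marks the median gene. All points but Nova1 in embryonic hippocampus (43.5) lie above the line, and Rbfox3 moves from 64.4 and 68.8 in the hippocampi to at least 97.5 in cortex and DIV14 cultures.

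Poly(A)-tail lengths are means over the tags of a gene, for genes with at least 50 tags, and the files give no spread between tags. Rbfox2 had the longest tails of the members in 7 of 9 cultures and ran from 113.0 to 132.6 nt. Ptbp2 was shorter than the median gene in 9 of 9 cultures, between 97.89 and 110.9 nt. Elavl1 had 7 values from 90.9 to 115.7 nt, and 2 of them lay above the median gene. The other Elavl genes were longer, with Elavl2 between 115.0 and 125.5 nt and above the median gene in 8 of 8 cultures, Elavl3 between 109.7 and 133.3 nt in 9 of 9, and Elavl4 between 101.1 and 116.2 nt in 7 of 9. Rbfox1 was above it in 9 of 9, between 112.9 and 126.0 nt. Nova1 did not reach 50 tags in any culture.

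In adult cortex, 6 of 9 members lay above the median gene of 99.47 nt. Rbfox1 was longest at 111.0 nt and Ptbp2 shortest at 83.66 nt. Against the DIV14 culture, 6 of 8 members were shorter in cortex by 10 nt or more, with 62.4% of 2663 genes doing the same, and 0 were longer (0.601%). Elavl3 went from 133.3 nt in culture to 101.6 nt in cortex, Rbfox2 from 130.3 to 102.6 nt and Elavl1 from 112.3 to 87.34 nt. Elavl4 stayed at 108.2 and 108.3 nt, while the median difference over all genes was -12.4 nt. With that median difference taken off, 4 members passed 10 nt, of which Elavl1, Elavl3 and Rbfox2 were shorter and Elavl4 was longer by 12.52 nt. The GFP culture in place of the unstimulated one left 3, Elavl3, Rbfox2 and Ptbp2. The share of all genes past 10 nt was counted in neither of these settings.

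From DIV10 to DIV14, Elavl1 (94.82 to 112.3 nt) and Elavl3 (121.4 to 133.3 nt) were longer by 10 nt or more, 2 of 8 members compared with 32.6% of genes, and 0 were shorter (1.45%). Rbfox2 was at 130.3 nt in both. In the hippocampi, whose tail values were multiples of 0.5 nt and were taken as medians, only Ptbp2 had 50 tags at both ages, with 67.0 nt in the embryo (66 tags) and 41.0 nt in the adult (89 tags). A decrease of 10 nt or more was found in 50.3% of the 169 genes measured at both ages. With at least 20 tags, Rbfox2 (104.0 and 44.5 nt, on 24 and 30 tags) and Elavl4 (67.0 and 49.0 nt) were also shorter in the adult. The share of all genes was not counted at that minimum.

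**Figure D4:**
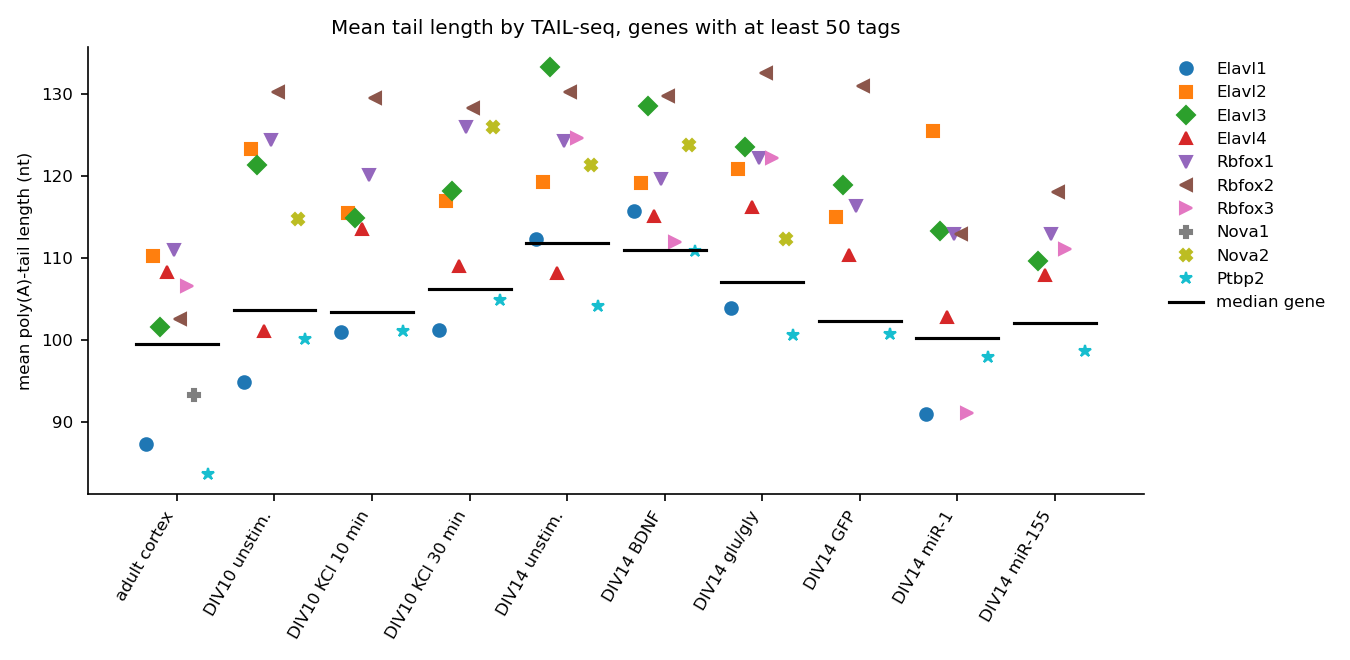
Mean poly(A)-tail length in nt by TAIL-seq of each gene with at least 50 tags, in adult cortex and 9 cultures; black lines mark the median gene. Rbfox2 stays near the top of the cultures (113.0 to 132.6 nt) and Ptbp2 below the line in all 9.

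Stimulation asked whether activity changes these mRNAs within minutes. RNA of the immediate-early gene Fos went from 13.76 CPM in the unstimulated DIV14 culture to 463.0 with BDNF and 295.9 with glu/gly, and at DIV10 from 13.43 to 43.32 and 245.3 CPM after 10 and 30 min of KCl. The Fos value at 10 min rests on 23 reads, against 16 reads without KCl, and the GFP culture, which had no stimulus, was at 44.64 CPM. At 10 min Npas4 and Egr1 were each at 9.417 CPM, against 7.556 CPM without KCl, and Arc was at 20.72 against 12.59 CPM. Npas4, Egr1 and Arc each rest on 15 reads or fewer in these libraries and show no clear response to 10 min of KCl. Of the members, 0 of 10 passed 2-fold in RPFs with any stimulus. The shares of all genes higher and lower by 2-fold in RPFs were 0.845% and 3.09% for BDNF, 0.812% and 2.92% for glu/gly, 1.37% and 6.28% for 10 min of KCl and 1.61% and 6.2% for 30 min. Rbfox3 came nearest, at log2 -0.71 in RPFs after both 10 min (-0.89 to -0.53) and 30 min of KCl (-0.94 to -0.48), which share the same control library. Its RPF level was 114.4 TPM without KCl, 68.84 TPM after 10 min and 71.02 TPM after 30 min. Elavl3 RPFs were at -0.56 (-0.68 to -0.44) after 30 min and Ptbp2 RPFs at 0.45 (0.34 to 0.55).

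In RNA the sole value past 2-fold was Nova2 with glu/gly, at 5 reads without and 20 reads with the stimulus (log2 1.76, 0.30 to 3.53; 3.13% of genes higher), while its RPFs were at 0.08 (-0.09 to 0.25) and its tags at 0.27 (-0.26 to 0.80). With BDNF 0 of 8 members passed in RNA (1.61% of genes higher, 2.71% lower), and with KCl 0 of 10 at either time (1.21% and 2.97% at 10 min, 2.5% and 7.94% at 30 min). TE passed 2-fold for 0 of 6 members with BDNF (0.213% and 0.383% of genes), 0 of 7 with glu/gly (0.444% and 0.909%), 0 of 6 with 10 min of KCl (0.528% and 5.15%) and 0 of 3 with 30 min (1.7% and 4.61%). The nearest was Rbfox1 with glu/gly at -0.99. Tails 10 nt or more apart were few. Rbfox3 was shorter with BDNF, at 112.0 nt against 124.7 nt (9.03% of genes shorter), Elavl4 was longer by 12.5 nt after 10 min of KCl (7.79% longer) and Nova2 was longer by 11.2 nt after 30 min (11.8% longer). No member passed that limit with glu/gly, where 20.2% of genes were shorter by 10 nt.

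Transduction and the miRNAs were read in RNA-seq and TAIL-seq. Whether the GFP and unstimulated cultures shared a batch is not stated, so batch and transduction cannot be told apart. In the GFP culture against the unstimulated one, Elavl4 RNA was higher (19 and 36 reads, log2 1.11, 0.27 to 1.99; 1.95% of genes higher) and Rbfox3 RNA lower (29 and 9 reads, -1.50, -2.77 to -0.39; 3.64% of genes lower). RPFs lay in the same directions but inside 2-fold, at 0.24 (0.03 to 0.44) and -0.30 (-0.46 to -0.15), and tags had intervals that spanned equality, at 0.10 (-0.35 to 0.53) and -0.16 (-0.70 to 0.34). Elavl3 tails were shorter, at 118.9 nt against 133.3 nt (40.4% of genes shorter).

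Against the GFP culture, no member with a 7-nt site was past 2-fold with miR-155. Elavl1 RNA was at log2 0.00 (-0.67 to 0.74) and its tags at -0.05 (-0.77 to 0.67). Elavl2 RNA was at 0.02 (-0.72 to 0.84) and its tags at -0.66 (-1.30 to -0.03), the only one of these intervals that excluded equality. Nova1 RNA was at -0.57 (-1.95 to 1.04), on 6 and 19 reads, and its tags at -0.52 (-1.77 to 0.70). At this depth, a decrease by 2-fold lay within the intervals of Nova1 in both assays and of Elavl2 in tags. Over all members, 0 of 10 passed 2-fold in RNA with miR-155 (4.12% of genes higher, 2.97% lower) and 0 of 8 with miR-1 (2.92% and 3.6%). Whether any member holds a site for miR-1 is not known here, since none was searched for. Rbfox2, which has no site of 7 nt for miR-155, was at -0.33 (-0.61 to -0.03) with miR-155 and at -0.88 (-1.23 to -0.52) with miR-1, but its tags were at 0.22 (-0.25 to 0.69) and 0.06 (-0.43 to 0.55). Its RNA in the shared GFP control was the highest of the 9 cultures (261.4 TPM). Rbfox2 tails were shorter, at 118.1 nt with miR-155 (8.47% of genes shorter by 10 nt) and 113.0 nt with miR-1 (14.9%) against 131.0 nt with GFP, and those of Elavl2 were longer by 10.6 nt with miR-1 (5.09% of genes longer).

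The visual cortex of light-exposed mice gave the replicated test. After 1 h of light, 0 of 10 members passed edgeR's quasi-likelihood test on tag counts, against 1.38% of 9554 genes called at an adjusted p under 0.05. At an unadjusted p under 0.05 there were also 0 members, and 9.41% of genes. DESeq2 called 0 members as well, with a lowest adjusted p of 0.951. Of 4 immediate-early genes, Egr1 at 8.87-fold higher (edgeR adjusted p = 0.00103) and Npas4 at 7.15-fold higher (adjusted p = 0.0105) passed. Fos at 15-fold (edgeR adjusted p = 0.106) and Arc at 9.81-fold (adjusted p = 0.193) did not, although neither overlapped between the groups.

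Rbfox1 was the most abundant member in every mouse, with 647.2 to 726.9 tags per 1000000 (CPM) in the dark and 600.2 to 800 after light (means 694.0 ± 38.7 and 697.6 ± 96.4, SD, n = 4 each). Its log2 difference was 0.03 (SE 0.09, 95% interval -0.15 to 0.22). Rbfox3 had 287.1 ± 23.8 and 280.4 ± 9.46 CPM, with a difference of -0.01 (-0.20 to 0.18). Both groups of both genes overlapped. Elavl4 had 264.6 ± 18.9 in the dark and 251.8 ± 23.5 after light, a difference of -0.05 (-0.25 to 0.14). Nova1 came nearest to a change, with 71.04 to 86.97 CPM in the dark and 81.72 to 102.1 after light (means 79.65 ± 6.59 and 91.93 ± 10.8). The groups overlapped, and the difference of 0.24 (SE 0.13, -0.02 to 0.49) did not pass (edgeR adjusted p = 0.579). Nova2 was the rarest member, with 52.21 ± 8.29 and 51.26 ± 2.06 CPM and a difference of -0.03 (-0.34 to 0.28). Differences of the remaining members lay between -0.04 and 0.03. Groups overlapped for all 10 members, and overlap was not counted over all genes.

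Tails of the members did not pass either, with 0 of 10 called by limma (0.231% of 4321 genes; at an unadjusted p under 0.05, 0 members and 3.93% of genes). Every member had an adjusted p of 0.999. Elavl1 had the largest difference, with mean tails of 88.08 to 103.4 nt in the dark and 96.32 to 111.7 nt after light (94.49 ± 7.67 and 103.3 ± 6.36 nt), or 8.84 nt longer (-4.26 to 21.94). Rbfox2 was next, at 88.2 ± 8.68 and 96.75 ± 10.7 nt, or 8.55 nt longer (-4.55 to 21.65). Rbfox1 was at 94.89 ± 9.86 and 94.85 ± 7.06 nt. The SE of 6.68 nt was the same for each gene, since limma pooled the spread over all genes, and the median tail of the 8 libraries itself ran from 77.52 to 97.47 nt. Centring each library on its median, chosen after seeing the data, put Elavl1 at 4.82 nt (SE 2.71, adjusted p = 0.586), Rbfox2 at 4.53 nt (SE 2.63, adjusted p = 0.603) and Rbfox1 at -4.06 nt (SE 2.27, adjusted p = 0.586), with 0 members called.

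Of the other RNA-binding genes in visual cortex, none passed in tag counts, against 1.38% of 9554 genes. Celf1 had the lowest p, with 71.04 to 79.34 CPM in the dark and 89.14 to 107.9 after light, a fold change of 1.29 with groups that did not overlap (edgeR adjusted p = 0.177). Mbnl1 groups did not overlap either, at 103.3 to 140.1 CPM in the dark and 95.67 to 102.8 after light (edgeR adjusted p = 0.572). Overlap was not counted over all genes, so its absence is not read as a response to light.

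Genes with the most similar RNA pattern over the 12 RNA-seq samples were sought among 4494 genes with at least 20 reads in each, a minimum that 5 members met. Rbfox1 was most like Atp2b3, a calcium pump of the plasma membrane (Pearson r = 0.98 of log2 CPM), then Epha6 and Ptk2b (both 0.968). Elavl3 was most like Rapgef1 (0.977), Ptbp2 like Zfp26 (0.962), Rbfox2 like Myg1 (0.92) and Elavl1 like Eif2ak3 (0.85). The points share depth and RNA selection within libraries, and the values are a description. Elavl2, Elavl4, Rbfox3, Nova1 and Nova2 had fewer than 20 reads in at least 1 library.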

How the data were processed

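The samples numbered 44, each grouped by its labels. The members and gene lists were chosen with earlier results of these data known. RNA-seq (12 libraries) and RPF files hold raw read counts per gene that the authors deposited beside RPM values, from reads aligned with STAR 2.4.2 (submitters' processing notes) and counted on 1 transcript per gene, over the ORF except its 5′ 50 nt. RPM values deposited by the authors use a total beyond the listed genes. The log2 TE values deposited by the authors are ratios of RPF to RNA RPM and served as an alternative. TAIL-seq (10 libraries) and PAL-seq (10) files hold tag counts and tail lengths in nt that the authors obtained with a hidden Markov model. A deposited table that repeats the tail values of the mice was not used.

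Reads and tags were scaled per 1000000 on listed genes (CPM), and TPM by dividing by the deposited counted length. Log2 ratios between single libraries carry 95% Clopper-Pearson intervals (SciPy 1.17.1) of counting error. A member was past a limit at 2-fold with at least 20 reads over both libraries, or at 10 nt with at least 50 tags in each. TE needed 10 RPM of RNA and 1 RPF. Light was tested with edgeR 4.0.16 (TMM, quasi-likelihood, filtered on low counts) on tags and limma 3.58.1 on mean tails, with Benjamini-Hochberg adjustment over all genes and light as the only term, after both were tested on simulated data. The mice were separate animals. For tags, p-values measure the spread between them, and for tails they rest on a spread between mice that limma pooled over all genes. Annotation was RefSeq GRCm38.p6, the assembly behind the mm10 build of the labels, and 16975 of 17126 accessions had a symbol. Alternatives were TMM, the authors' RPM or TPM scaling, DESeq2 1.42.0, other tag and RPM minimums, log2 tails, centring, a replicate block and each mouse left out. All 10 members were named by the rule, other genes by a fixed list of 24. In the labels of 2 RPF libraries of miRNA cultures the fields contradict each other, so these entered no comparison.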

Additional observations from a re-analysis of the deposited data

Results flagged for a closer look

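Within the groups of 4 mice, 3 values stood apart from the other 3 mice by Dixon's criterion at 95%, of 40 groups examined, and chance alone gives about 1 in 20. Mean tail length of Nova2 was 101.0 nt in light mouse 1 and between 85.37 and 87.32 nt in the others. Ptbp2 had 167.6 tags per 1000000 in light mouse 4 and between 140.9 and 141.9 in the others. Its mean tail length was 80.55 nt in dark mouse 3, whose library had the lowest median tail of the 8 (77.52 nt), and between 90.32 and 92.09 nt in the other dark mice. The part of that library median in the last value was not tested.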

How the results depend on the processing

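No member was called for light under any alternative run, in tags or tails. In tags, 1 of 10 members reached an edgeR unadjusted p under 0.05 without dark mouse 4, light mouse 1 or light mouse 2. The same runs had 864 of 9754, 924 of 9765 and 750 of 9666 genes at that level. Over all genes, 132 were called for tags, 126 with DESeq2, 197 with no filter on low counts and between 93 and 159 with a mouse left out. For tails, 10 genes were called, 1 with log2 lengths, 3 with library medians centred (chosen after seeing the data), and between 1 and 21 with a mouse left out. Leaving out dark mouse 1 (19) or light mouse 4 (21) raised that count, and leaving out dark mouse 2 (2), dark mouse 3 (1), dark mouse 4 (1), light mouse 2 (1) or light mouse 3 (2) lowered it. Mice that share a replicate number did not deviate together (r from -0.201 to 0.118 for tags and from -0.113 to 0.041 for tails). This gave no sign that the numbers pair the mice, but it cannot exclude a pairing. With the replicate block, 120 genes were called for tags and 1 for tails. In each measure, 1 of 4 numbers gave the best match.

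Between ages, members past 2-fold in RNA were 5, and 8 with the authors' RPM. The TE difference past 2-fold (1 member) was left with 0 members at a 30 RPM cutoff, which removes genes. Members past 10 nt in hippocampal tails were 1, and 3 with at least 20 tags. For cortex over culture, members past 2-fold in RNA were 3, 5 with TMM, 5 with ratios of TPM (added after seeing the data) and 5 with the GFP culture, and members past 10 nt in tails were 6, and 3 with the GFP culture. For stimulated and miRNA cultures over their control, 1 RNA value passed 2-fold, 2 with TMM (adding Rbfox3 with miR-1, 1.05) and 0 by TAIL-seq tags. Shares of all genes were not counted at 30 RPM, at 20 tags, for cortex over the GFP culture or with TMM in stimulated and miRNA cultures. Of the 40 single log2 changes in the first 2 comparisons, 12 moved beyond their counting interval with TMM and 16 with the authors' RPM, and none of those past 2-fold changed sign. Depth limited the RNA-seq of Nova1, Nova2 and Rbfox3 in cultures most.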

Other observations

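The labels contradicted themselves on the miRNA of 2 RPF libraries of DIV14 cultures, with 817114 and 6428048 reads on genes, and their values stand apart from any comparison. Elavl3 was at 452.5 TPM in the smaller and 373.8 TPM in the larger library, Rbfox1 at 288.5 and 269.0 TPM, Rbfox2 at 291.5 and 283.8 TPM, and Rbfox3 at 266.7 and 255.8 TPM. Ptbp2 was at 202.1 and 235.5 TPM, Elavl1 at 256.1 and 204.0 TPM, Elavl4 at 147.9 and 152.0 TPM, Elavl2 at 105.1 and 101.9 TPM, Nova2 at 105.4 and 140.7 TPM, and Nova1 at 18.86 and 21.25 TPM. In both, Elavl3 was the highest and Nova1 the lowest member.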
